A study of Mus musculus with 9 samples.

Results

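The interferon-gamma-induced GTPases are 10 genes, namely the guanylate-binding protein genes Gbp2, Gbp3, Gbp4, Gbp5, Gbp6 and Gbp7 and the immunity-related GTPase genes Igtp, Irgm1, Irgm2 and Iigp1. They were chosen by symbol, and all 10 were found among the 49671 genes of the count tables. RNA was measured by bulk sequencing of poly(A) RNA in a mouse pancreatic cancer cell line, KPCWT (WT), and in its counterpart KPC49bKO (KO), labelled as a knockout of CD49b, the collagen-binding integrin alpha 2 chain encoded by Itga2. The groups were WT cultures (2 libraries), KO cultures (2 libraries), WT tumours (3 libraries) and KO tumours (2 libraries). Cultured cells of both lines grew in DMEM with serum and antibiotics, and no library is labelled as treated with interferon. Tumours of both lines grew under the skin of the flank in C57BL/6 mice of matching background, whose age is not given, and were dissociated with enzymes before RNA was extracted. These hosts keep their own immune and stromal cells, so a tumour library holds RNA of host cells and of cancer cells. Each genotype is represented by 1 line, so an effect of the knockout and another difference between the 2 lines cannot be told apart. The batch tag of the labels equals the setting, so culture against tumour and batch cannot be told apart either.

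Interferon-gamma is a cytokine made mainly by T cells and natural killer cells. Its receptor activates the kinases JAK1 and JAK2, and signalling ends at the gamma-activated site (GAS) of target promoters, while IRF1 and the factors of type I interferon bind the interferon-stimulated response element (ISRE). The GTPases encoded by such target genes are known for cell-autonomous defence: guanylate-binding proteins and effector immunity-related GTPases such as Iigp1 gather on the vacuoles of intracellular pathogens. The regulatory members Irgm1, Irgm2 and Igtp sit on the cell's own membranes and hold the effectors inactive there.

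Total counts per library lay between 16032912 and 21247023. The targeted gene Itga2 stood at 168 and 135 CPM (counts rescaled so that libraries of different depth can be compared) in WT cultures, against 96.6 and 104 CPM in KO cultures. In tumours Itga2 stood at 119, 144 and 137 CPM in WT, against 44.6 and 64.1 CPM in KO, and its transcript was thus lower in KO but still counted (log2 fold change -0.64, adjusted p = 0.0135 in culture, and -1.32, adjusted p = 0.00602 in tumours, by edgeR). Markers of epithelial cancer cells summed to between 9491 and 10366 CPM in the cultures. In tumours they summed to 5491, 5065 and 4223 CPM in WT against 9152 and 7348 CPM in KO. Epcam, an epithelial adhesion molecule, went the other way, with 107, 157 and 67.0 CPM in WT tumours against 34.3 and 41.0 CPM in KO tumours. So did Sox9, with 153, 176 and 107 CPM against 30.5 and 38.9 CPM. In culture Epcam had 0 and 1 counts in KO against 56 and 53 in WT. The KO tumours are called 1 and 3 after their data columns. Replicates are labelled as biological, but the sources used here do not say which cultures or animals were separate, so p-values measure the spread between these libraries, part of which may be technical.

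The promoters are shown because the members moved together between culture and tumour. RefSeq windows of 300 bases (GRCm38.p6, 250 bases before to 50 after the start site) matched 7 members, which leaves out Gbp4, Gbp6 and Iigp1. The letters searched were TTCNNNGAA for GAS, which reads the same on both strands, and for the core of ISRE GAAA, any 2 bases and GAAA again, searched on both strands. The stretches below are written 5′ to 3′ on the gene's strand, with matches to either motif in capitals, and Tgtp1, a GTPase gene outside the 10, is given for comparison.
Gbp2 (chr3:142620594-142620623, plus strand): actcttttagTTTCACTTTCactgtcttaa
Gbp3 (chr3:142559989-142560024, plus strand): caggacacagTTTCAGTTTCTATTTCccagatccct
Gbp5 (chr3:142496759-142496900, plus strand): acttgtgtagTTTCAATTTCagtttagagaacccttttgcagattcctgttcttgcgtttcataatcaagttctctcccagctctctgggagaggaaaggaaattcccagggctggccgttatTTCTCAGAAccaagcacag
Gbp7 (chr3:142530220-142530302, plus strand): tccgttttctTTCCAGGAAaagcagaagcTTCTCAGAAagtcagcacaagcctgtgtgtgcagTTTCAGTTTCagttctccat
Igtp (chr11:58199501-58199541, plus strand): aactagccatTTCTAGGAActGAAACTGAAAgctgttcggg
Irgm1 (chr11:48871425-48871460, minus strand): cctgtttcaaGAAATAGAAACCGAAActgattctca
Irgm2 (chr11:58214892-58214932, plus strand): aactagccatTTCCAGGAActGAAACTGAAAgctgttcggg
Tgtp1 (chr11:48992304-48992344, minus strand): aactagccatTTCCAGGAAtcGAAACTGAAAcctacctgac

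The ISRE core was found in a window of 7 of the 7 members, and in 3.44% of all 32851 promoter windows. GAS was found in 4 of the 7 (Gbp5, Gbp7, Igtp and Irgm2), and in 8.30% of all windows, while 0.454% of all windows held both motifs. The first base of the ISRE match nearest the start site lay 59 bases before it in Gbp2, 39 in Gbp3, 165 in Gbp5, 53 in Gbp7, 34 in Igtp, 24 in Irgm1 and 64 in Irgm2. In Gbp3 and in Irgm1 the capitals cover a pair of overlapping ISRE matches, and Gbp3 has another RefSeq window, of a different start site, that held neither motif. Gbp5 has a further GAS match 245 bases before its start that is not shown. In Igtp and Irgm2 the 2 motifs are separated by 2 bases, and the printed stretches share 40 of 41 bases. Tgtp1 has the same spacing and shares 31 of the 41 bases with Igtp and 32 with Irgm2. These matches describe the sequence, and no factor binding was measured.

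**Figure D1:**
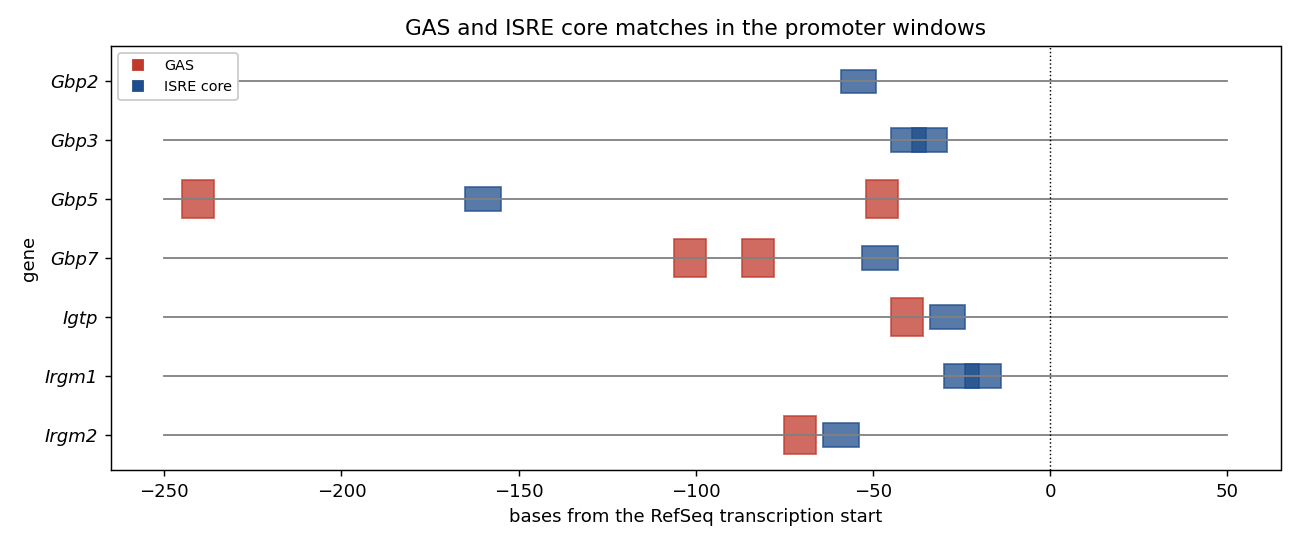
Positions of GAS and ISRE core matches in the RefSeq promoter windows of the members with a window, plotted as bases from the start site along the horizontal axis with 1 line per window. Every one of the 7 genes has an ISRE match, and the 4 genes Gbp5, Gbp7, Igtp and Irgm2 also have GAS matches.

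The members lie on 4 chromosomes of the mouse genome (GRCm38). On chromosome 3 the plus strand holds Gbp5 (ENSMUSG00000105504, 142493978 to 142522344), Gbp7 (ENSMUSG00000040253, 142530342 to 142550149), Gbp3 (ENSMUSG00000028268, 142560026 to 142573209) and Gbp2 (ENSMUSG00000028270, 142620602 to 142638008). The minus strand of chromosome 5 holds Gbp4 (ENSMUSG00000079363, 105115767 to 105139586) and Gbp6 (ENSMUSG00000104713, 105270702 to 105293698). Chromosome 11 holds Irgm1 on the minus strand (ENSMUSG00000046879, 48861968 to 48871683) and, on the plus strand, Igtp (ENSMUSG00000078853, 58199556 to 58207591) inside the span of Irgm2 (ENSMUSG00000069874, 58199618 to 58222782) save for its first bases. Iigp1 (ENSMUSG00000054072) lies on chromosome 18 from 60376027 to 60392634. Near-identical sequence bears on the counting of some members. For Gbp6, 64.5% of the 100-base windows of its transcripts occur in another gene as well, mostly in Gm43302, so its level is uncertain. The share was 10.0% for Gbp7, 5.16% for Igtp, 3.01% for Irgm2, 1.64% for Gbp4, at most 0.694% for Gbp3 and Gbp5, and 0 for Gbp2, Irgm1 and Iigp1.

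The cultured cancer cells carried transcripts of only some members above a trace. Irgm1, a regulator needed for resistance to several intracellular bacteria, led with 17.1 and 13.9 CPM in WT cultures against 9.68 and 6.95 CPM in KO cultures. Irgm2, another regulator, stood at 4.30 and 4.18 CPM in WT against 1.502 and 0.973 CPM in KO. Igtp, a regulator found on the endoplasmic reticulum, stood at 2.46 and 3.85 CPM in WT against 2.11 and 1.32 CPM in KO. In these genes, the 3 regulators, both KO cultures lay below both WT cultures, which held for 29.2% of the 13573 genes tested. Gbp7, a guanylate-binding protein, had 19 and 28 counts in the WT cultures (1.20 and 1.83 CPM) and 2 and 0 counts in the KO cultures. Divided by exonic length, the mean WT level was 2.67 CPM per kb for Irgm1, 1.56 for Igtp, 1.15 for Irgm2 and 0.270 for Gbp7, and no other member passed 0.180 CPM per kb.

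The other 6 members were near the limit of detection in culture. Gbp2 had 4 and 10 counts in WT and 7 and 7 in KO, and Gbp3 had 6 and 4 in WT and 2 and 5 in KO. Gbp4, Gbp5 and Iigp1 had 0 to 2 counts in each culture, where 3 counts over the 2 libraries of a group, taken as the floor, correspond to 0.0964 CPM in WT and 0.0927 CPM in KO. Gbp6 had 1 and 1 counts in WT and 6 and 3 in KO, and most of its sequence is shared with other genes.

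The comparison of KO with WT cultures asks how the lines differ without a host. Of the 10 members, Irgm1 and Irgm2 were lower in KO, none was higher (nor by DESeq2 or at an unadjusted p under 0.05), Igtp did not pass the test and 6 were below the filter on low counts, where 16.2% of the 13573 genes tested were lower and 9.27% higher. Gbp7 passed the filter only through its WT counts, so that its call as lower was fixed by the filter and supports nothing, and it is given as counts. Irgm2 was lower by a log2 fold change of -1.79 (SE 0.35, adjusted p = 0.00248, edgeR's quasi-likelihood test with Benjamini-Hochberg adjustment, as for all adjusted p given here). Irgm1 was lower by -0.93 (SE 0.24, edgeR adjusted p = 0.0118), but its adjusted p was 0.0632 without WT culture 1, 0.0524 without KO culture 2 and 0.105 in 1 fit of all 9 libraries. Gbp7 had 2 counts in KO against 47 in WT, a ratio of 0.0409 with an exact 95% counting interval of 0.00482 to 0.156. Igtp was at -0.90 (SE 0.38, edgeR adjusted p = 0.106), and without KO culture 1 its adjusted p was 0.0486. Irgm1, Irgm2, Igtp and Gbp7 had both KO cultures below both WT cultures, which held for 29.2% of the genes tested.

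**Figure D2:**
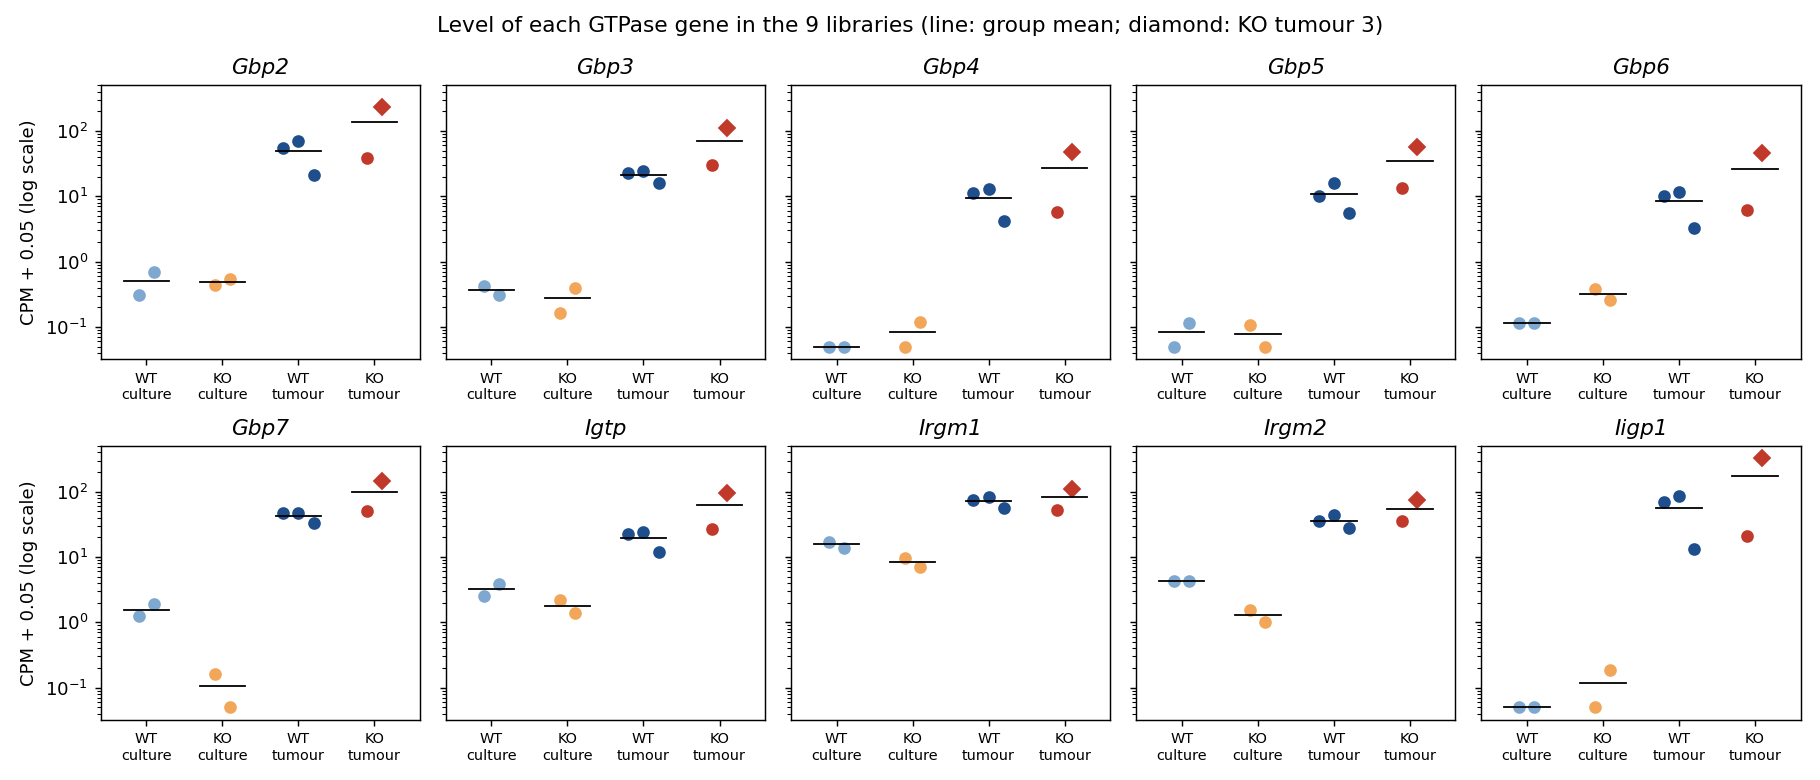
Level of each member in each of the 9 libraries, as CPM plus 0.05 on a logarithmic axis, with a line at the mean of each group and a diamond for KO tumour 3. For all 10 genes the tumour points lie above the culture points, and the highest point of each gene is KO tumour 3.

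In tumours all 10 members were high. In the WT tumours Gbp2, a guanylate-binding protein with a lipid anchor, stood at 55.4, 69.5 and 21.4 CPM and Irgm1 at 73.9, 83.8 and 55.3 CPM. Iigp1, the best-studied effector of mouse cells against Toxoplasma vacuoles, stood at 68.3, 85.7 and 13.2 CPM after 0 counts in either WT culture. Every WT tumour lay above every WT culture for each member, which held for 44.8% of the 16793 genes tested. Divided by exonic length, the mean WT tumour level was highest for Gbp2 (19.4 CPM per kb), followed by Irgm1 (12.2), Igtp (9.61), Irgm2 (9.60), Iigp1 (9.58), Gbp7 (7.57) and Gbp3 (6.38). Gbp5, known for promoting inflammasome assembly, stood at 1.60 CPM per kb, Gbp6 at 1.41 and Gbp4 at 1.24. The range over the 3 WT tumours overlapped between neighbours in this order from Gbp2 to Gbp3 and from Gbp5 to Gbp4, so the order within these spans is not resolved, while Gbp3 and Gbp5 did not overlap.

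Tumour exceeded culture for 10 of 10 members in both genotypes by edgeR, where 36.1% of the 16793 genes tested were higher and 29.6% lower in WT, and 32.9% higher and 26.4% lower in KO. This count is a description only, since 6 members (all but Irgm1, Irgm2, Igtp and Gbp7) had too few counts in culture and passed the filter through the tumours, where they are high. Every tumour lay above every culture of its genotype for all 10, which held for 44.8% of genes in WT and 43.4% in KO. How far they rose differed between members, as given by ratios of scaled counts with exact 95% counting intervals, which cover counting error only. In WT the ratio was 4.52 for Irgm1 (4.12 to 4.98, edgeR adjusted p = 0.000147), 6.05 for Igtp (4.92 to 7.51) and 8.25 for Irgm2 (6.92 to 9.91). These are the 3 regulators, which the cultured cells already carried. The ratio was 27.8 for Gbp7 (20.9 to 38.0), 64.03 for Gbp3 (34.7 to 134) and 105 for Gbp2 (62.6 to 193), the last of which was 187 without WT culture 2. Gbp6, with 2 culture counts, gave 126 (34.7 to 1044), and Gbp5, with 1, gave 321 (57.5 to 12712). Gbp4 was at least 93.5-fold and Iigp1 at least 555-fold higher, against the floor of 3 counts over the WT cultures.

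In KO the ratios of tumour to culture were 9.81 for Irgm1 (8.66 to 11.1, edgeR adjusted p = 2.91e-05), 35.7 for Igtp (27.5 to 47.4) and 43.3 for Irgm2 (31.8 to 60.6). The regulators thus stood in the order they had in WT, with larger values. This order is not fully resolved. The intervals of Igtp and Irgm2 overlapped in both genotypes, as did those of Irgm1 and Igtp in WT. Gbp2 gave 324 (193 to 593), Gbp3 gave 332 (161 to 827) and Gbp6 gave 95.7 (50.2 to 210). These values rest on KO tumour 3. Without it the ratio was 6.16 for Irgm1, 15.3 for Igtp, 27.6 for Irgm2, 88.2 for Gbp2 (52.2 to 162), 139.7 for Gbp3 (67.3 to 349) and 22.1 for Gbp6 (11.2 to 49.6). The ratio of Gbp3, with 7 culture counts, was 646 without KO culture 2 and 207 without KO culture 1. With 1 or 2 counts in the KO cultures, Gbp4, Gbp5, Gbp7 and Iigp1 gave ratios between 887 and 2902 whose counting intervals together ran from 159 to 45232, and between 182 and 809 without KO tumour 3.

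The KO tumours were far apart, so each is described by itself. Summed over the 10 members, the level was 356, 419 and 191 CPM in WT tumours 1, 2 and 3, 278 CPM in KO tumour 1 and 1248 CPM in KO tumour 3. KO tumour 3 was above every WT tumour for 10 of 10 members, which held for 38.2% of the 16257 genes tested in tumours, and this count was 10 under each of the 4 scalings tried. KO tumour 1 was above every WT tumour for 3 members (Gbp3, Gbp7 and Igtp; 38.7% of genes), below every WT tumour for Irgm1 (40.2% of genes) and within the WT range for the other 6. With scaling by library totals Gbp7 also lay within the range. For 7 members KO tumour 3 was above every WT tumour and KO tumour 1 was not, which held for 10.8% of genes.

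Among guanylate-binding proteins, Gbp2 stood at 38.2 CPM in KO tumour 1 and 235 CPM in KO tumour 3. Gbp3 stood at 22.7, 24.0 and 15.8 CPM in the WT tumours, 30.2 CPM in KO tumour 1 and 110.4 CPM in KO tumour 3. Gbp7 stood at 46.8, 47.8 and 32.9 CPM in WT, 50.0 CPM in KO tumour 1 and 147 CPM in KO tumour 3. KO tumour 1 lay just above the highest WT tumour for Gbp3 and Gbp7, and between the WT tumours for Gbp2. Gbp4 stood at 11.0, 12.7 and 4.13 CPM in WT against 5.61 and 47.6 CPM in KO tumours 1 and 3. Gbp5 stood at 10.2, 16.1 and 5.53 CPM in WT against 13.1 and 55.9 CPM in KO tumours 1 and 3. Gbp6, with its shared sequence, stood at 10.1, 11.8 and 3.24 CPM in WT against 6.14 and 45.6 CPM in KO. For these 3 genes KO tumour 1 lay between the WT tumours and KO tumour 3 far above them.

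Among immunity-related GTPases, Igtp stood at 22.1, 24.2 and 12.0 CPM in the WT tumours against 26.9 and 96.3 CPM in KO tumours 1 and 3. The regulators Irgm1 and Irgm2 had the smallest ratios to WT in KO tumour 3. Irgm1 stood at 52.1 and 112 CPM in KO tumours 1 and 3, 0.734 and 1.57 times the WT mean. Irgm2 stood at 35.6, 43.2 and 27.4 CPM in WT against 34.9 and 73.3 CPM in KO, 0.987 and 2.07 times the WT mean. The other 8 members were between 3.45 (Gbp7) and 5.85 times (Iigp1) the WT mean in KO tumour 3, and between 0.375 (Iigp1) and 1.45 times (Gbp3) in KO tumour 1. Iigp1 had the widest spread, with 20.9 CPM in KO tumour 1 and 326 CPM in KO tumour 3. It was also the most variable among WT tumours, where its highest level was 6.47 times its lowest, against 1.45 times for Gbp7. WT tumour 3 was the lowest WT tumour for all 10 members. The share of all genes for which this held was not counted, so it is a description only. The chi-square per gene, by which replicate libraries differ beyond counting noise, was 33.3 and 34.0 between WT tumour 3 and WT tumours 1 and 2. It was 6.55 between WT tumours 1 and 2.

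**Figure D3:**
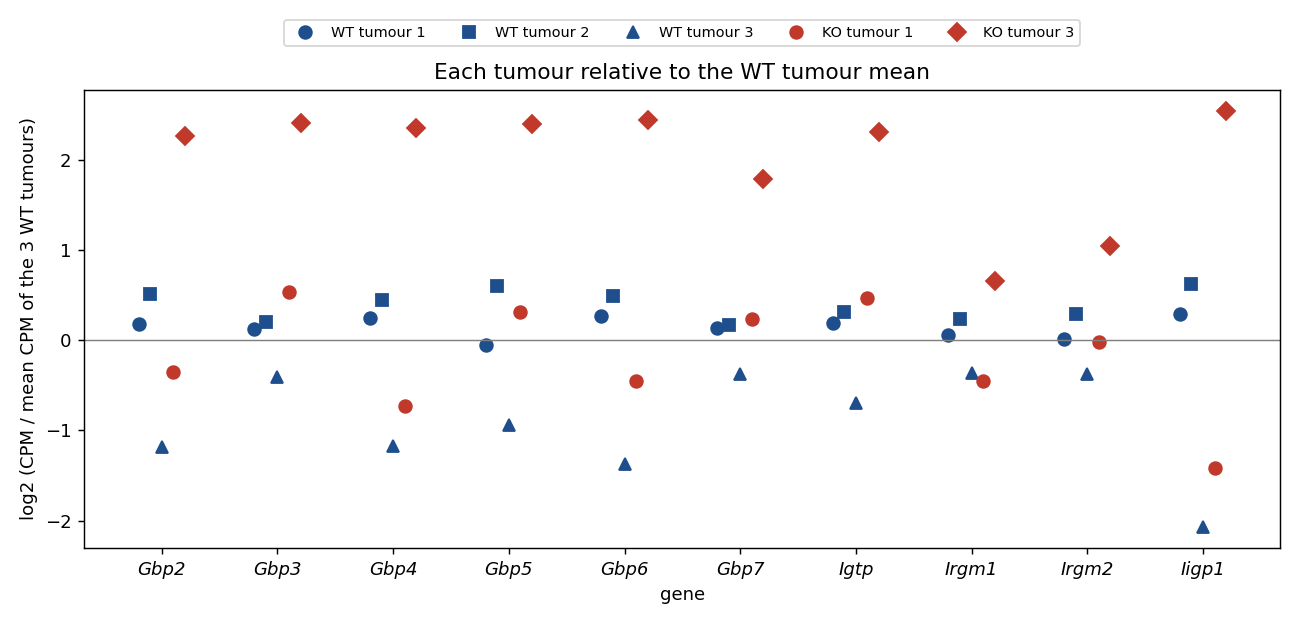
Level of each member in each tumour divided by the mean of the 3 WT tumours, as a log2 ratio, with 1 point per tumour. As plain ratios, KO tumour 3 lies between 1.57 and 5.85 times the WT mean for all members, and KO tumour 1 between 0.375 and 1.45 times.

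Between the KO tumours, the level in KO tumour 3 over that in KO tumour 1 had a median of 1.95 on the log2 scale over the 10 members (with a pseudocount of 0.5 CPM) and ran from 1.06 for Irgm2 to 3.93 for Iigp1. Over all 16257 genes the median was 0, with the 5th percentile at -0.77 and the 95th at 1.06. With 1 library on each side this difference has no replicate check.

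As groups, the KO and WT tumours differed in 1 of the 10 members, and the spread between the KO tumours was wide. Gbp2 averaged 48.8 ± 24.7 CPM in WT (SD, n = 3) and 136 ± 139 CPM in KO (SD, n = 2), Irgm1 averaged 71.0 ± 14.4 and 81.9 ± 42.1 CPM, and Iigp1 averaged 55.8 ± 37.8 and 173 ± 216 CPM. Gbp3 was higher in KO by a log2 fold change of 1.73 (SE 0.48, edgeR adjusted p = 0.0488), where 8.78% of genes were higher and 10.9% lower. This call was lost without KO tumour 3 (0.55, adjusted p = 0.179), with scaling by library totals (adjusted p = 0.0655) and without any 1 of the WT tumours 1, 2 and 3 (adjusted p from 0.121 to 0.138). Igtp was at 1.64 (SE 0.52, edgeR adjusted p = 0.0687) and Gbp7 at 1.18 (SE 0.41, edgeR adjusted p = 0.0861), and with Gbp3 they are the 3 members for which both KO tumours lay above all WT tumours, which held for 27.3% of genes. The others did not pass the test, at 1.45 for Gbp2, 1.49 for Gbp4, 1.68 for Gbp5, 1.60 for Gbp6, 0.18 for Irgm1, 0.59 for Irgm2 and 1.60 for Iigp1, with edgeR adjusted p between 0.106 and 0.722. The SE of these values ran from 0.32 for Irgm1 and Irgm2 to 1.07 for Iigp1. The median over the 10 members was 1.54 against -0.01 over all genes, and it rests on KO tumour 3, without which Gbp2, Gbp4, Gbp6, Irgm1, Irgm2 and Iigp1 had negative values from -1.40 to -0.01. Without KO tumour 1, 5 members were higher (Gbp3, Gbp4, Gbp5, Gbp7 and Igtp), as were 854 of all 17337 genes tested. That fit has KO tumour 3 alone on the KO side and takes the spread from the WT tumours.

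**Figure D4:**
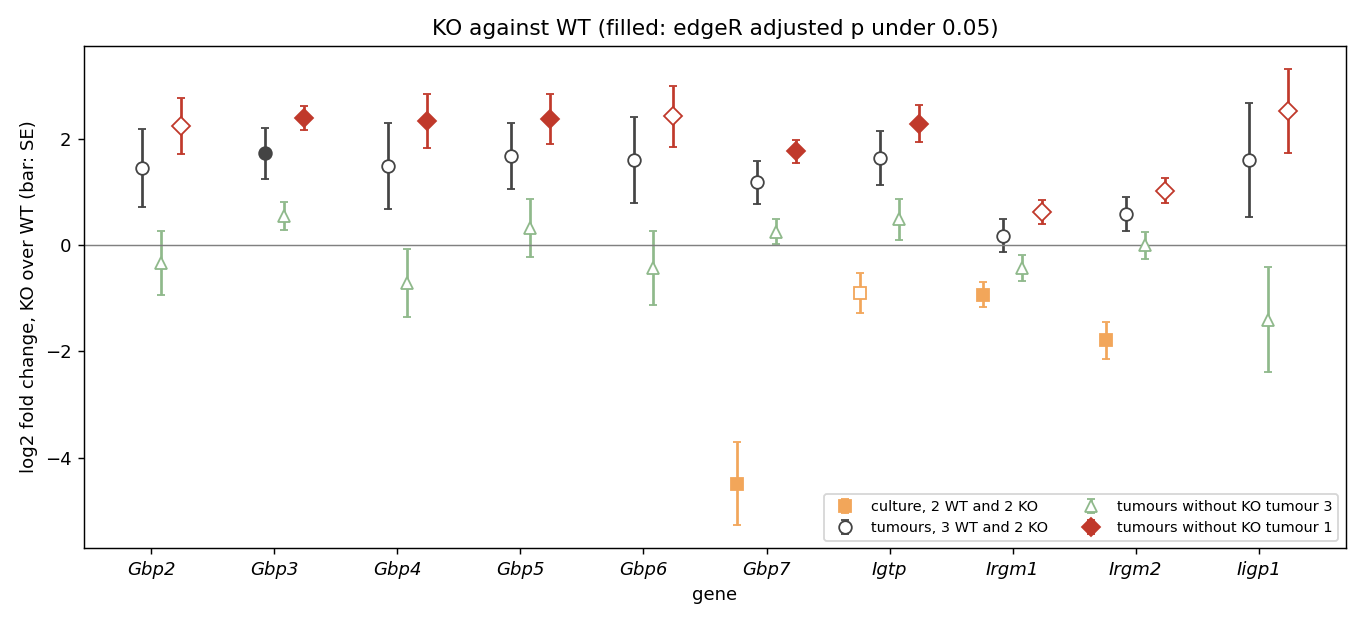
Log2 fold change of KO over WT for each member in culture (squares, members that passed the filter), in all tumours (circles), without KO tumour 3 (triangles) and without KO tumour 1 (diamonds), with bars of 1 SE, where filled points have an edgeR adjusted p under 0.05. In culture the filled points are Irgm1, Irgm2 and Gbp7, all below 0, and in all tumours the filled point is Gbp3, at 1.73.

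The difference between KO and WT was more positive in tumours than in culture for Irgm2 by a test of that difference, where 4.15% of 16793 genes were called in this direction and 1.54% in the other. Irgm2 differed by 2.36 on the log2 scale (SE 0.52, edgeR adjusted p = 0.0258). Gbp7 also had an adjusted p under the threshold (0.0209, edgeR), but its culture side rests on 2 and 0 counts in KO, so it is not read as a difference between settings. Igtp was at 2.52 (SE 0.80, edgeR adjusted p = 0.0941) and Irgm1 at 1.10 (SE 0.45, edgeR adjusted p = 0.186), and the other 6 had too few culture counts for the difference to be read. The call of Irgm2 held without KO tumour 3 (adjusted p = 0.0193) and was lost without KO culture 1, KO culture 2, WT culture 1 or WT culture 2 (adjusted p from 0.0740 to 0.105).

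Genes around the members were followed by lists. Ifng, the cytokine's own gene, had 0 counts in every culture, 10, 3 and 2 counts in the WT tumours, 3 in KO tumour 1 and 24 in KO tumour 3. Of the 11 genes of ligand, receptor and signalling, 10 were tested in tumours, where 1 was higher in KO and 1 lower. These counts are near the shares over all genes, 8.78% higher and 10.9% lower. Jak2, the receptor-bound kinase, was higher (0.72, edgeR adjusted p = 0.00999) and Socs3, a feedback inhibitor of cytokine receptors, lower (-1.03, edgeR adjusted p = 0.0342). Irf1 stood at 77.5, 80.7 and 56.3 CPM in WT against 68.1 and 131 CPM in KO tumours 1 and 3. Its highest level was thus in KO tumour 3, as for the members. In culture 9 were tested and Socs3 alone was called (-0.65, edgeR adjusted p = 0.0194), where 16.2% of all genes were lower and 9.27% higher.

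Of 14 other interferon-inducible GTPase genes, 5 were tested in culture, where 3 were lower and 2 higher in KO (16.2% and 9.27% of all genes). Of the lower ones, Ifi47 and Mx2 passed the filter only through their WT counts, so their calls support nothing and they are given as counts. Ifi47, a further immunity-related GTPase, had 96 and 135 counts in WT cultures (6.07 and 8.82 CPM) against 3 and 4 in KO cultures (0.167 and 0.278 CPM). Mx2 had 20 and 17 counts in WT cultures against 4 and 4 in KO cultures. Mx1, an antiviral GTPase of the type I response, was lower by a log2 fold change of -1.72 (edgeR adjusted p = 0.00329). In tumours 13 were tested, and 2 were higher in KO (8.78% of all genes): Gm12250 (2.38, edgeR adjusted p = 0.0357) and 9930111J21Rik2 (1.06, edgeR adjusted p = 0.00895). The difference of 9930111J21Rik2 was not particular to tumours, as it was also higher in KO cultures (1.01, edgeR adjusted p = 0.00323). Ifi47 was at 20.6, 23.9 and 15.8 CPM in WT against 26.6 and 56.2 CPM in KO tumours 1 and 3. Gbp2b, the gene next in kind to Gbp2, had 0 counts in culture and stood at 0.389, 0.553 and 0.341 CPM in WT tumours and at 0.175 and 2.43 CPM in KO tumours 1 and 3. Tumour exceeded culture for 10 of the 13 in WT and 11 of the 13 in KO (36.1% and 32.9% of all genes). As for the members, this count is a description only. Genes such as Gvin1 and Gbp2b, with 0 counts in every culture, passed the filter through the tumours, where they are high.

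Of 25 other interferon-gamma targets, 18 were tested in culture, where 8 were lower in KO and 1 higher (16.2% and 9.27% of all genes), with a median log2 fold change of -0.42 against 0.00 over all genes. The lower ones include Tap1 (-2.08, edgeR adjusted p = 0.000127), the peptide transporter of antigen presentation. They also include Psmb8 and Psmb9, subunits of the immunoproteasome, and Casp1. These 3 passed the filter only through their WT counts, so their calls as lower support nothing. Psmb8 had 118 and 133 counts in WT cultures against 9 and 4 in KO cultures. Psmb9 had 71 and 115 against 6 and 6, and Casp1 had 11 and 22 against 6 and 1. In tumours all 25 were tested, 6 were higher in KO and 1 lower (8.78% and 10.9% of all genes), with a median of 0.74. The lower one was Nos2 (-2.56, edgeR adjusted p = 0.0118), which was also lower in KO cultures (-3.50, edgeR adjusted p = 2.05e-06). The higher ones include B2m, the light chain of MHC class I (1.502, edgeR adjusted p = 0.0138), and Ido1, which degrades tryptophan (4.09, edgeR adjusted p = 0.0205). The difference of B2m was not particular to tumours, as B2m was also the 1 target called higher in KO cultures (0.54, edgeR adjusted p = 0.0242). The chemokine genes Cxcl9 and Cxcl10, which draw T cells, had their highest level in KO tumour 3 but did not pass the test. Cxcl9 stood at 15.7, 20.5 and 6.26 CPM in WT against 13.7 and 109 CPM in KO tumours 1 and 3 (2.09, edgeR adjusted p = 0.115). Cxcl10 stood at 7.49, 9.90 and 5.49 CPM and at 5.20 and 37.5 CPM (1.46, edgeR adjusted p = 0.187).

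Markers of host cells differed between the tumours too. The 8 T cell markers summed to 20.4, 20.8 and 5.45 CPM in WT tumours 1, 2 and 3, 29.4 CPM in KO tumour 1 and 68.1 CPM in KO tumour 3. For 8 of 8 the level in KO tumour 3 was above every WT tumour, which held for 38.2% of the 16257 genes tested in tumours. Ptprc, the marker of all leukocytes, stood at 25.0, 25.2 and 29.2 CPM in WT against 34.0 and 62.9 CPM in KO. The 8 macrophage markers summed to 154, 154 and 260 CPM in WT and to 191 and 330 CPM in KO. For 6 of 8 the level in KO tumour 3 was above every WT tumour (38.2% of genes). WT tumour 3, the WT tumour lowest in all members, was also lowest of all tumours in T cell markers. Its macrophage markers were the highest of the WT tumours, below those of KO tumour 3, and its neutrophil markers summed to 52.5 CPM against 3.84 to 12.5 CPM in the other 4 tumours. Natural killer cell markers summed to 2.82, 2.36 and 3.02 CPM in WT and to 3.10 and 4.92 CPM in KO. Of these sums Eomes, which the WT cultures also carried, gave 2.58, 1.31 and 2.34 CPM in WT and 0.701 and 1.89 CPM in KO. B cell markers summed to at most 1.11 CPM in any tumour. Fibroblast markers summed to 1102, 752 and 2115 CPM in WT and to 267 and 434 CPM in KO. The part of these cell types in the members' levels was not tested, and in bulk RNA the number of cells of a type and the RNA per cell cannot be told apart.

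**Figure D5:**
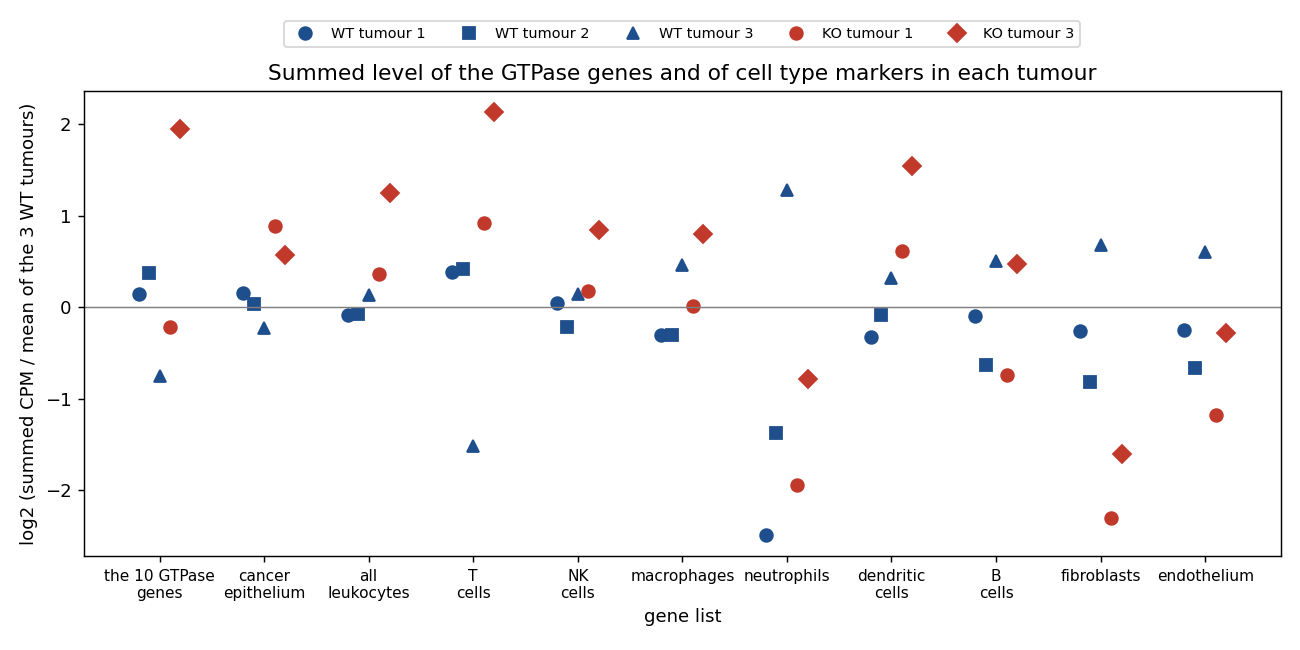
Summed CPM of the 10 members and of each marker list, divided by the mean of the 3 WT tumours and shown as a log2 ratio, 1 point per tumour. KO tumour 3 has the highest sum of members, at 1248 CPM, and of T cell markers, at 68.1 CPM.

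Markers of immune cells were also counted in culture. The 8 macrophage markers summed to between 217 and 227 CPM in WT and between 187 and 202 CPM in KO, mostly from Mrc1, with 5 of 8 at 0 counts in WT and 4 of 8 in KO. Natural killer cell markers summed to between 2.59 and 3.27 CPM in WT and to at most 0.167 CPM in KO, all of it from Eomes. Dendritic cell markers summed to between 3.27 and 4.11 CPM in WT and at most 0.695 CPM in KO, mostly from Zbtb46. Both sums thus lay lower in KO cultures, each through 1 gene or mostly so. Of the 5 natural killer cell markers 4 had 0 counts in every culture of a line, and of the 5 dendritic cell markers 3 in WT and 4 in KO. Of the 8 T cell markers 7 had 0 counts in both WT cultures and 6 in both KO cultures, and the sums of 2.22 to 4.34 CPM came mostly from Trac. Ptprc stood at 2.46 and 3.07 CPM in WT culture and at 8.51 and 10.1 CPM in KO culture, so its KO cultures lay above its WT cultures. The part of these markers in the members' levels in culture was not tested.

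The pattern over the 9 libraries was shared among the members. The log2 level of each member correlated with the mean of the other 9 at r between 0.973 (Irgm2) and 0.995 (Gbp2), a description over 9 libraries that share the gap between cultures and tumours. Among 10914 genes with a mean of at least 5 CPM, those most like the members' mean were Tgtp1 (r = 0.997), Gm4951 (0.996), Tgtp2 (0.995) and H2-DMa (0.995). Tgtp1 and Tgtp2 encode further effector immunity-related GTPases, and H2-DMa encodes a chain of the molecule that loads peptides on MHC class II. Tgtp1 stood at 21.8, 28.4 and 7.66 CPM in the WT tumours against 13.0 and 66.1 CPM in KO tumours 1 and 3. H2-DMa stood at 9.19, 12.6 and 8.22 CPM in WT against 7.89 and 32.9 CPM in KO tumours 1 and 3. In both genes KO tumour 3 was the highest of all libraries. KO tumour 1 lay within the range of the WT tumours for Tgtp1 and just below it for H2-DMa.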

How the data were processed

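The authors' deposited raw counts per Ensembl gene, 1 table for culture and 1 for tumours, were used, and their normalized and log-transformed tables were not. Per the labels' protocols, reads were deduplicated by molecular identifiers. The submitters' processing notes name GRCm38 and the tools DESeq2, fastp 0.23.1, featureCounts, STAR 2.5.2b and Subread 1.5.2. Which annotation release and strand setting were used, and how reads with several positions were counted, is not given in the sources used here, so genes that overlap or share sequence with a member could take its reads. Symbols came from GENCODE M21, for 49412 of 49671 genes, and promoter sequences from RefSeq.

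Genes were filtered with filterByExpr (minimum count 10, minimum total 15), scaled by TMM and tested with edgeR 4.0.16 (quasi-likelihood F test, R 4.3.3), with Benjamini-Hochberg adjustment over all genes tested and a threshold of 0.05. KO was compared with WT within each setting. Tumour against culture, and the difference between the 2 knockout comparisons, came from 1 fit of all 9 libraries. Log2 fold changes use a prior count of 0.125, the SE is derived from them and the F statistic, and printed CPM are scaled by TMM over the 9 libraries. Intervals and floors cover counting error only. The scripts were tested on simulated data.

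The members and lists were chosen with earlier results of these data known. Named genes are the 10 members, Itga2, up to 4 genes of each list with the smallest p in a comparison, Ifng, Irf1, Cxcl9, Cxcl10 and Gbp2b, the genes most like the members, and markers. A gene that this rule names is not reported here. Epcam, Sox9, Ptprc, Trac, Mrc1, Eomes and Zbtb46 are named as markers. Alternatives were scaling by RLE or library totals, no filter, DESeq2 1.42.0, 1 fit of all libraries, the replicate number as a block and each library left out in turn. A KO tumour has the number 2 in the labels and 3 in the data, and was therefore matched to its group alone. Replicate libraries differed beyond counting noise: the chi-square per gene was 6.55 between WT tumours 1 and 2 and 25.2 to 43.9 in the other pairs. The planned comparison of protein sequences was not run.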

Additional observations from a re-analysis of the deposited data

Results flagged for a closer look

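The difference between KO and WT itself had an adjusted p under the threshold between tumours and culture for 2 members, by the test of that difference in 1 fit of all 9 libraries. For Irgm2 the log2 difference was 2.36 (SE 0.52, edgeR adjusted p = 0.0258), with both KO cultures below both WT cultures and, of the KO tumours, 1 of 2 above every WT tumour. For Gbp7 it was 5.68 (SE 1.20, edgeR adjusted p = 0.0209). Its size depends on the prior count, since the KO cultures held 2 and 0 counts, and it ran from 4.71 to 9.01 when 1 library was left out, so it is listed and not read as a difference between settings. Both KO tumours lay above every WT tumour for Gbp7, save with library totals, where KO tumour 1 lay within the WT range. Over the 5 alternatives that kept all libraries the adjusted p ran from 6.43e-09 to 0.0477 for Irgm2 and from 3.06e-18 to 0.0492 for Gbp7. Both calls were lost without KO culture 1, KO culture 2 or WT culture 2, and that of Irgm2 without WT culture 1 as well.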

How the results depend on the processing

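The 10 members were higher in tumours than in culture, in both genotypes, under every alternative. In culture the number lower in KO, 3 with Gbp7 included, ran from 2 to 4 when 1 library was left out. In tumours the number higher in KO, 1 as reported, was 2 by DESeq2, 4 without the filter, 4 in 1 fit of all libraries and 0 with library totals. Calls over all genes moved as well. The number of all genes higher in KO, 1428 as reported, was 1931, 1732, 2010 and 1150 in these alternatives. The number called for the difference between settings, 2 with Gbp7 included, was 5 without the filter and from 0 to 4 when 1 library was left out. Where this left a group with 1 library, that library was assumed to vary like the others. When 1 library was left out, the log2 fold change in tumours ran from -0.34 to 2.24 for Gbp2, -0.71 to 2.34 for Gbp4, -0.43 to 2.42 for Gbp6, -0.43 to 0.63 for Irgm1, -0.0057 to 1.03 for Irgm2 and -1.40 to 2.52 for Iigp1, with the lowest value without KO tumour 3 and the highest without KO tumour 1. Scaling by library totals raised the median of all genes in tumour against culture by 0.47 in WT and 0.43 in KO, and the share of calls that were higher from 54.9% to 72.7% and from 55.5% to 74.4%, with 3154 and 2636 genes lower instead of 4977 and 4431.

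Over all genes, the counts called higher and lower ran from 570 to 986 and 1560 to 1999 in culture (1258 and 2203 as reported), 417 to 2154 and 754 to 1989 in tumours (1428 and 1778), and 232 to 1148 and 44 to 503 for the difference (697 and 258) when 1 library was left out. For the difference they were 1308 and 567 without the filter, and DESeq2 called 536 lower. With the replicate number as a block, possible in culture only, 3689 genes were higher and 3898 lower, and 4 members were lower, Igtp included (edgeR adjusted p = 0.0168). Libraries with the same number share only that number (correlation of their deviations 0.403 over 2 pairs). With 2 or 3 libraries a group and few culture counts for 6 members, differences between lines in culture were not detectable for these 6.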

Other observations

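Of 13 genes of type I interferon signalling, 11 were tested in culture, where 5 were lower in KO (16.2% of all genes), and 13 in tumours, where 5 were higher (8.78% of all genes). Of the 5 lower in culture, Oas1a, Usp18 and Ifit3 passed the filter on low counts only through their WT counts, so their calls are a description only. Oas1a, a sensor of double-stranded RNA, stood at 14.4 and 17.2 CPM in WT cultures (228 and 264 counts). In KO cultures it stood at 0.501 and 1.18 CPM (9 and 17 counts, log2 fold change -4.31). Stat2, a transcription factor of the type I response, stood at 48.3, 43.5 and 49.1 CPM in the WT tumours against 91.3 and 115 CPM in KO tumours 1 and 3 (1.11, edgeR adjusted p = 0.00415). Irf7, a regulator of type I interferon genes, stood at 41.1, 29.9 and 46.3 CPM in the WT tumours against 71.9 and 90.1 CPM in KO tumours 1 and 3 (1.03, edgeR adjusted p = 0.0167). For Stat2 and Irf7, named for their small p in this comparison, both KO tumours lay above all WT tumours, which held for 27.3% of genes.

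Partners of the GTPases at vacuoles, mostly of the autophagy conjugation machinery, were 13 genes by list and 12 by match. In tumours 1 of the 12 tested was lower in KO (10.9% of all genes), and in culture 3 of 11 were lower (16.2% of all genes), with Aim2, a sensor of cytosolic DNA, at -1.76 (edgeR adjusted p = 1.30e-05). Against culture, 8 of the 12 were lower in WT tumours (29.6% of all genes were) and 7 in KO tumours (26.4% of all genes), among them Atg5 (-1.62 in WT and -1.43 in KO, edgeR adjusted p = 2.40e-05 and 0.000153), which is known to be needed for the GTPases to gather on vacuoles. In the tumours, where all 10 GTPases were higher than in culture, most of these genes were thus lower.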
